A study of Mus musculus with 12 samples.

Results

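The comparison described here is that of livers from mice fed a high-fat diet with chrysanthemum leaf ethanol extract (the CLE group) and livers from mice fed the high-fat diet alone (the HFD group). Its members are the 3 livers that the sample labels describe as CLE added to the high-fat diet and the 3 described as high-fat diet, 6 of the 12 livers of the series. The other 6 are 3 livers of a normal diet (ND) group and 3 of a group given the high-fat diet with luteolin (LU), a flavone found in the leaves. All mice were male C57BL/6J, started their diets at 5 weeks of age, stayed on them for 16 weeks and were 21 weeks old. The extract was mixed into the diet at 1.5% by weight and luteolin at 0.003%. The labels name no transgene or other agent, and the HFD, CLE and LU groups share the high-fat diet. Mice were housed 1 to a cage, and p-values below measure the spread between these livers. RNA of whole liver was sequenced, so fewer cells of a type and less RNA per cell cannot be told apart.

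Many liver genes differ between male and female mice because the pituitary releases growth hormone in pulses in males and more evenly in females. Male-biased genes include the major urinary proteins (Mup), pheromone carriers made in the liver and passed into urine, and Hsd3b5, a steroid dehydrogenase. Female-biased genes include the cytochromes Cyp2b9 and Cyp2a4. The Cyp2 and Cyp3 cytochromes oxidize drugs, steroids and fatty acids, and sulfotransferases (Sult), glucuronosyltransferases (Ugt) and glutathione S-transferases (Gst) attach groups that make their products soluble. In obese mice fed fat, the liver also stores triglyceride in droplets, for which it takes up fatty acids through Cd36 and can build glycerides through Mogat1.

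Expression was deposited as FPKM, Cufflinks' estimate of fragments scaled to transcript length and to the mapped fragments of a library, and was summed over the transcripts of each gene name. The tests took the 11510 genes whose average across all libraries was 0.5 FPKM or more, on log2(FPKM + 1), by limma with Benjamini-Hochberg adjustment at 0.05. On this scale a fold change understates the change of low genes. CLE livers differed from HFD livers in 709 genes, 6.16% of those tested. Higher in CLE livers were 324 genes (2.81%), of which 28 by at least 1 on the log2 scale, and lower were 385 (3.34%), of which 56 by at least that much. At an unadjusted p of 0.05, 3402 genes (29.6%) passed. CLE and HFD values did not overlap in 706 of the 709 genes, against 31.3% of all genes tested.

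These counts moved with GC content and with single livers. For 11425 genes with known GC content, each library's log2 values were set against the 12-library average. Spearman's rho between this difference and GC content was -0.31, -0.37 and -0.14 in the HFD livers 12, 15 and 18 (livers are named by their mouse numbers) and 0.16, 0.48 and 0.21 in the CLE livers 2, 4 and 11. ND libraries ranged from -0.37 to -0.18 and LU libraries from 0.22 to 0.36. Genes are not independent replicates, and the points share a library, so no test was made. Of the genes in the lowest quintile of GC content, 14 were higher and 171 lower in CLE livers, and in the highest quintile 166 were higher and 19 lower. The median GC content was 56.1% for the genes that were higher, 45.1% for those that were lower and 50.3% for all tested. After each library's deviation was smoothed against GC content and subtracted, 112 genes were higher (0.980% of 11425) and 232 lower (2.03%), among them 85 of the 324 and 201 of the 385. The GC relation separates CLE from HFD livers and cannot be told apart from the diet. Without CLE liver 4, which had the steepest GC relation, 18 genes were higher and 36 lower, without HFD liver 15 the counts were 5 and 22, and without CLE liver 2 they were 1001 and 1201. These totals over all 11510 genes are the background for list counts without the same livers below. So few genes passed without CLE liver 4 or HFD liver 15 that a 0 there does not set a list apart. A clock score was the mean of standardized Arntl, Npas2 and Clock minus that of Dbp, Per2, Per3, Nr1d1 and Ciart. It was -0.54, 1.67 and -0.35 in the HFD livers and -0.86, -1.89 and -1.22 in the CLE livers, without overlap. With this score as a covariate 8 genes were higher and 25 lower. The score also separates CLE from HFD livers and cannot be told apart from the diet, so this covariate takes away part of the contrast itself. Depth is unknown because the values hold no read counts.

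**Figure D1:**
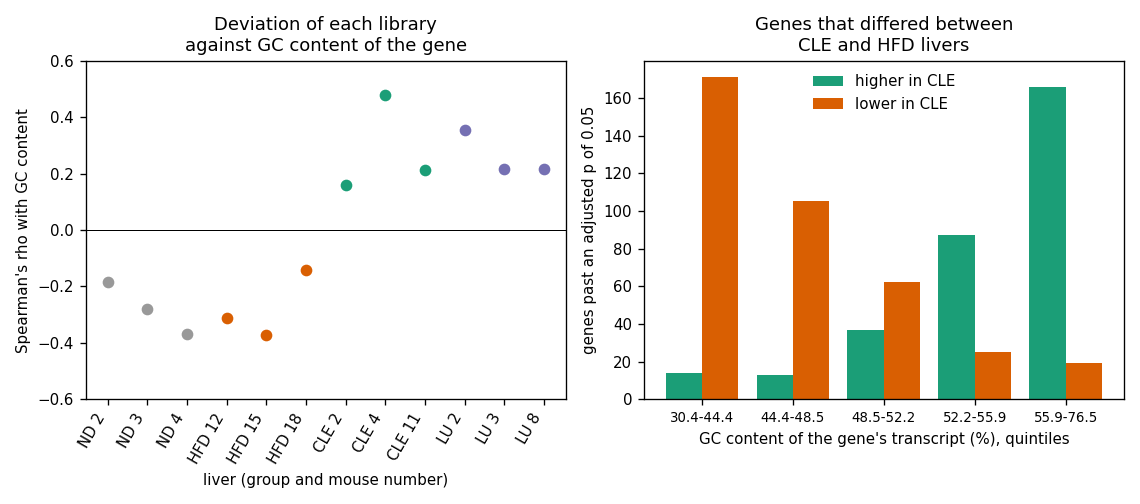
The left panel plots, for each of the 12 livers, Spearman's rho across 11425 genes between GC content and the library's difference from the 12-library average, and the right panel counts the genes past an adjusted p of 0.05 in quintiles of GC content. CLE and LU libraries lie above 0 and ND and HFD libraries below it, and the lowest quintile holds 171 lower and 14 higher genes while the highest holds 19 and 166.

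In each of the 6 fits that left out 1 HFD or CLE liver, 25 of the 709 genes passed, 5 higher and 20 lower in CLE livers, and all 25 also passed with the GC correction. Their adjusted p-values, like all those below, are from limma. This set was picked after its values were seen and supports nothing by itself. Higher were Cyp4a12b (a fatty acid omega-hydroxylase), Igfbp2 (a binding protein of insulin-like growth factors), Lad1, Pnpla7 (a lysophospholipase) and Nlrp12. Lower were 7 cytochromes (Cyp2a22, Cyp2a4, Cyp2b9, Cyp2c29, Cyp2c38, Cyp2c39, Cyp2c55), the estrogen sulfotransferase Sult1e1, the transporters Slc22a26 and Slc22a27, the hydroxyacid oxidase Hao2, the prolactin receptor Prlr, the carboxylesterase Ces1g, the monoacylglycerol acyltransferase Mogat1, the neurotrophin receptor Ntrk2, Nrn1, Ildr2, Fam126a, Dsg1c and Prelid2.

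The start regions of the 4 genes with the largest falls among the 25 are shown. Each is the 300 bases from 250 before to 50 after the RefSeq start (GRCm38.p6, 5′ to 3′ on the strand of the gene). The genes were picked by their falls, so that they fell together was fixed by the choice. Cyp2a4 passed the filter at 0.5 FPKM only through the HFD group. Capitals mark AGGTCA or its reverse complement TGACCT, the half-site that many nuclear receptors bind.
Cyp2b9, chr7:26173159-26173458, plus strand: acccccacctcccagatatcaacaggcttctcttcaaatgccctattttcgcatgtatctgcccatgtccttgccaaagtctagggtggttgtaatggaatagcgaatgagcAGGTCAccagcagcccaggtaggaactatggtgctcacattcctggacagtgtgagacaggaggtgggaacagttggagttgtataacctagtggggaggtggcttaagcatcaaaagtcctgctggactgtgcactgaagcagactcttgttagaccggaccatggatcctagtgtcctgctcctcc
Sult1e1, chr5:87591562-87591861, minus strand: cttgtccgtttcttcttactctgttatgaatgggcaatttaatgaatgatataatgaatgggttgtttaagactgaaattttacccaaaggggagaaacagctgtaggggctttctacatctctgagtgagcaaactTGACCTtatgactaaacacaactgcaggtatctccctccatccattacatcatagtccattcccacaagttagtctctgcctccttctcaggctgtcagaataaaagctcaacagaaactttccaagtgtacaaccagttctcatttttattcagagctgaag
Cyp2c29, chr19:39286835-39287134, plus strand: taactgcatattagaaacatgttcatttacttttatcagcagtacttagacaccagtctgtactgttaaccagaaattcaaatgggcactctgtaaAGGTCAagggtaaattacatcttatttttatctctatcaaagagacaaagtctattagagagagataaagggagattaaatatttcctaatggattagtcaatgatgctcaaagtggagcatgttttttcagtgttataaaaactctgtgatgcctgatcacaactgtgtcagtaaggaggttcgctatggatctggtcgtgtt
Cyp2a4, chr7:26306942-26307241, plus strand: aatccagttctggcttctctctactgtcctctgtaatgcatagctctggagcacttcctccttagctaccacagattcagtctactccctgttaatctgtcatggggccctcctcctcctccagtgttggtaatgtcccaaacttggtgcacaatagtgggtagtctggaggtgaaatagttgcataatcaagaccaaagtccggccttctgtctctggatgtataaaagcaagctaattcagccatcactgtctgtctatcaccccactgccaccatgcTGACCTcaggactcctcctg
Each of the 4 windows held the half-site once, 138 bases before the start in Cyp2b9, 113 before it in Sult1e1, 154 before it in Cyp2c29 and 30 after it in Cyp2a4. RefSeq gave promoters for 21 of the 25 genes, 25 windows in all, of which 7 (28%) held the half-site on either strand. Among the 11068 windows of tested genes the share was 13.1%, and among the 325 and 372 windows of genes that were higher and lower it was 10.2% and 16.7%. The letters TTCNNNGAA, the core to which STAT5 binds, were in 3 of the 25 windows (12%) and in 6.82% of those of tested genes. The median GC content was 47% in the 25 windows and 60.3% in those of tested genes. Over all promoters it was 52.7%, and 16.3% of them held the half-site. The related genes Cyp2b9, Cyp2a4, Cyp2c29 and Cyp2c39 are among the 7 with the half-site, so these are not separate cases. These are counts of letters in short windows, and no test was made of them.

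Male-biased liver genes were the list with the most members higher in CLE livers. Of its 19 tested members, 10 rose and 0 fell, where 2.81% of all genes rose, and its median log2 fold change was 1.17, against 0.02 over all genes tested. After the GC correction 9 rose. Hsd3b5 (ENSMUSG00000038092, chromosome 3, 98618634 to 98630252 of GRCm38) read 0.600, 0.169 and 1.01 FPKM in the HFD livers 12, 15 and 18 and 15.9, 8.63 and 44.0 in the CLE livers 2, 4 and 11. The lowest CLE liver was thus above the highest HFD liver, and the log2 fold change was 3.64 (SE 0.83, adjusted p = 0.033). ND livers averaged 60.7 ± 32.4 FPKM (SD, n = 3) and LU livers 35.8 ± 28.6. Mup7 (ENSMUSG00000073842, chromosome 4, 60066469 to 60070475) read 252, 66.0 and 196 FPKM in HFD livers and 2010, 825 and 2572 in CLE livers, a log2 fold change of 3.44 (SE 0.85, adjusted p = 0.039). Cyp4a12b (ENSMUSG00000078597, chromosome 4, 115411624 to 115439034) read 13.6, 16.0 and 20.4 in HFD livers and 80.6, 58.3 and 73.9 in CLE livers. The log2 fold change of Cyp4a12b was 2.03 (SE 0.19, adjusted p = 6.6e-04), and ND livers averaged 73.7 ± 8.92.

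Slco1a1, an organic anion transporter, read 18.4, 11.4 and 17.9 FPKM in HFD livers and 61.5, 38.2 and 95.2 in CLE livers (log2 fold change 1.90, SE 0.35, adjusted p = 0.018). Serpina1e, an alpha-1 antitrypsin gene, read 79.3, 71.8 and 138 in HFD livers and 338, 865 and 861 in CLE livers (2.76, SE 0.65, adjusted p = 0.036). Elovl3, which elongates saturated fatty acids, read 144, 158 and 118 in HFD livers and 237, 377 and 346 in CLE livers (1.17, SE 0.22, adjusted p = 0.021). In each of these genes the CLE and HFD values did not overlap, as in 706 of the 709 genes that passed. Mup1 read 95.7, 41.6 and 52.6 FPKM in HFD livers and 241, 156 and 373 in CLE livers (2.0, SE 0.54, adjusted p = 0.047), and after the GC correction its adjusted p was 0.058. Outside the list, Mup14 and Mup19 rose too, with log2 fold changes of 2.89 and 2.37 and adjusted p-values of 0.034 and 0.040. The remaining members that rose were Mup3, Mup20 and C6, a complement component. The Mup genes and the Serpina1 genes are near copies of each other, so the share of fragments given to any 1 copy is uncertain. Hsd3b5, Mup7, Serpina1e and Mup1 passed in 1 of the 6 fits that left out a liver, Slco1a1 in 4 and Elovl3 in 2. These fits gave between 1 and 11 rises in this list, with 1 without HFD liver 15 and 2 without CLE liver 4, and the list's median stayed between 1.11 and 1.33. With the clock score as a covariate, which itself separates CLE from HFD livers, 1 member rose.

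Of the 19 female-biased liver genes listed, 17 were matched by name and 8 of these were under the filter on low values. Among the 9 tested 5 fell and 0 rose, where 3.34% of all genes fell. Hao2 and Cyp2a4 passed the filter only through the HFD group, where they are high, so that a fall was fixed by the filter. Of the other 7 tested members 3 fell (Cyp2b9, Prlr and Cyp2c40), and 2 with the GC correction. Cyp2b9 (ENSMUSG00000040660, chromosome 7, 26173411 to 26210661, a name that covers 2 annotated genes) read 71.0, 113 and 61.2 FPKM in HFD livers and 1.54, 8.68 and 1.8 in CLE livers. The HFD mean was 20.4 times the CLE mean, and the log2 fold change was -4.29 (SE 0.62, adjusted p = 0.0060), the largest fall of the named genes. ND livers averaged 0.555 ± 0.534 and LU livers 5.27 ± 6.47 FPKM. Cyp2a4 (ENSMUSG00000074254, chromosome 7, 26307169 to 26315088) read 4.18, 5.66 and 4.00 in HFD livers and 0.657, 1.13 and 0.201 in CLE livers (-1.78, SE 0.21, adjusted p = 0.0021). Hao2, a peroxisomal hydroxyacid oxidase, read 1.77, 2.44 and 1.58 in HFD livers and 0.168, 0.418 and 0.242 in CLE livers (-1.19, SE 0.13, adjusted p = 9.2e-04), and was listed at 0 in the ND livers. Prlr, whose name covers 3 annotated genes, read 202, 195 and 208 in HFD livers and 134, 107 and 130 in CLE livers (-0.71, SE 0.10, adjusted p = 0.0070). Cyp2c40 read 7.56, 6.46 and 4.90 against 2.55, 3.38 and 2.35 (-0.95, SE 0.23, adjusted p = 0.037), and with the GC correction its adjusted p was 0.077. Hao2 and Cyp2a4 included, between 4 and 6 members fell when single livers were left out.

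**Figure D2:**
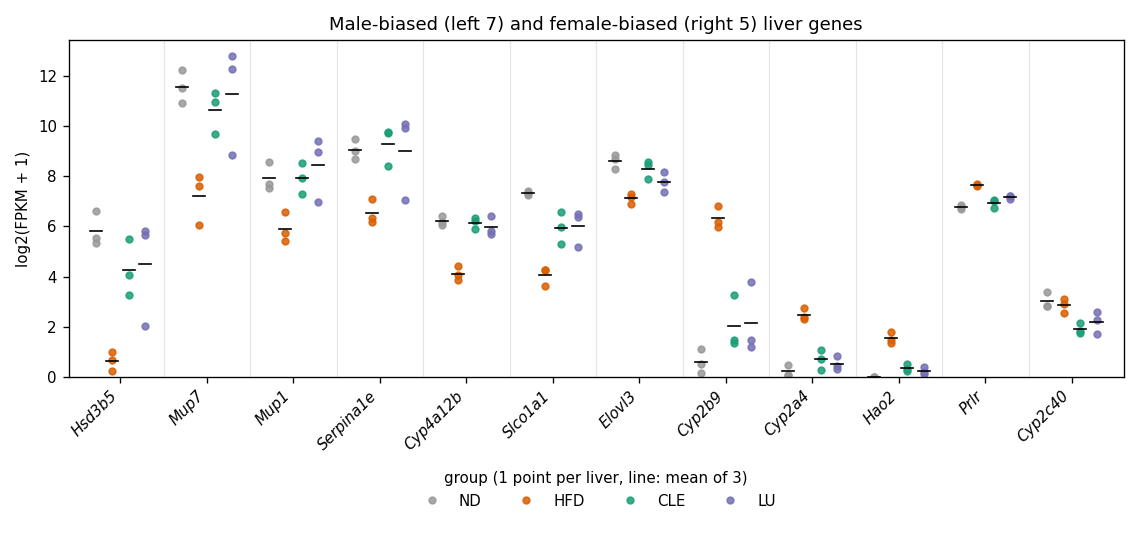
Log2(FPKM + 1) of 7 male-biased and 5 female-biased liver genes is plotted per liver, with 1 point a liver and a line at the mean of the 3 livers of each group. CLE points lie above the HFD points in the male-biased genes and below them in the female-biased genes, without overlap. All 12 were chosen among the 709 genes past 0.05, of which 706 do not overlap, against 31.3% of all genes tested. Cyp2a4 and Hao2 passed the filter only through the HFD group.

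In the growth hormone and IGF1 list, 1 of 12 tested members rose and 1 fell, where 2.81% of all genes rose and 3.34% fell. Igfbp2 (ENSMUSG00000039323, chromosome 1, 72824503 to 72852474) read 170, 118 and 161 FPKM in HFD livers and 420, 749 and 473 in CLE livers. CLE livers held 3.65 times the HFD mean (log2 fold change 1.83, SE 0.23, adjusted p = 0.0028), and ND livers averaged 386 ± 94.7. Ghr, the growth hormone receptor, read 320, 335 and 317 in HFD livers and 214, 156 and 210 in CLE livers (-0.75, SE 0.15, adjusted p = 0.022). Both changes passed with the GC correction (adjusted p = 0.0063 and 0.034), and without CLE liver 4 or HFD liver 15 Igfbp2 passed and Ghr did not.

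Of the 31 tested Cyp2 and Cyp3 genes, 11 fell and 0 rose, where 3.34% of all genes fell, and 8 fell with the GC correction, where 2.03% did. Cyp2a4 and Cyp2b10 passed the filter on low values only through the HFD group, and of the other 29 members 9 fell, and 6 with the GC correction. Of the 11 genes 3 also stand in the female-biased list (Cyp2b9, Cyp2a4 and Cyp2c40). The median log2 fold change of those 29 was -0.31. Cyp2c29 (ENSMUSG00000003053, chromosome 19, 39269405 to 39330713, a name over 2 annotated genes), which oxidizes fatty acids and drugs, read 1066, 960 and 782 FPKM in HFD livers and 271, 216 and 299 in CLE livers. All CLE values were thus far under the lowest HFD value, with a log2 fold change of -1.84 (SE 0.20, adjusted p = 9.2e-04), and near the ND mean of 279 ± 32.7. Cyp2c38 read 89.7, 78.3 and 70.6 in HFD livers and 29.8, 24.0 and 23.8 in CLE livers (-1.58, SE 0.17, adjusted p = 9.2e-04). Cyp2a22 read 48.4, 41.5 and 40.2 against 14.1, 14.8 and 11.4 (-1.62, SE 0.23, adjusted p = 0.0056). Cyp2c55 read 2.02, 2.95 and 2.93 against 0.577, 0.305 and 0.758 (-1.23, SE 0.17, adjusted p = 0.0045). The other members that fell were Cyp2c39, Cyp2b10 (the usual target of the receptor CAR), Cyp2c50 and Cyp3a59. When single livers were left out, 7 to 11 members fell, and 7 fell with the clock score as a covariate. Cyp2 genes of a subfamily are close in sequence, and their separate values are uncertain.

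Among 18 tested sulfotransferase and glucuronosyltransferase genes, 8 fell and 0 rose, where 3.34% of all genes fell. The median GC content of the list was 40.6%, within the lowest quintile of GC content, in which 171 of 2285 genes fell. Sult1e1 (ENSMUSG00000029272, chromosome 5, 87575969 to 87591594), which sulfates estrogens, read 12.0, 6.61 and 15.2 FPKM in HFD livers and 0.334, 0.273 and 0.295 in CLE livers. It had the smallest adjusted p of all genes tested (log2 fold change -3.17, SE 0.28, adjusted p = 5.3e-04), and ND and LU livers averaged 0.225 ± 0.161 and 1.16 ± 0.872. Ugt2b35 read 144, 158 and 154 in HFD livers and 102, 64.9 and 84.4 in CLE livers (-0.87, SE 0.16, adjusted p = 0.018). Ugt3a2 read 254, 256 and 250 against 186, 132 and 180 (-0.62, SE 0.13, adjusted p = 0.024). Sult1c2, Sult1d1 and Ugt3a1 fell by 0.70, 0.67 and 0.59 (adjusted p = 0.038, 0.036 and 0.033), and Ugt2b34 and Ugdh also fell. After the GC correction 3 of the 8 fell, namely Sult1e1, Ugt2b35 and Ugt3a2, and without CLE liver 4 or without HFD liver 15 only 1, Sult1e1.

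Of 19 tested glutathione S-transferase genes, 4 fell and 2 rose, where 6.16% of all genes passed in either direction. Gstm3 (chromosome 3, 107963696 to 107969283) read 53.3, 67.3 and 66.9 FPKM in HFD livers and 19.2, 4.13 and 9.56 in CLE livers (log2 fold change -2.62, SE 0.50, adjusted p = 0.021). Gsta1 read 27.0, 44.8 and 54.3 against 24.7, 10.7 and 17.6 (-1.22, SE 0.28, adjusted p = 0.034). Gsta3 read 1037, 1046 and 955 against 534, 524 and 607 (-0.87, SE 0.14, adjusted p = 0.013). The abundant Gstm1, whose name covers 2 annotated genes, fell by 0.70 (adjusted p = 0.034) from 1153 ± 117 FPKM in the HFD group to 708 ± 21.9 in the CLE group. The 2 that rose were Gstt2, from 63.4, 52.1 and 61.5 FPKM to 96.5, 172 and 93.5 (0.97, SE 0.19, adjusted p = 0.023), and Gstp2 (1.25, adjusted p = 0.047). Under the GC correction all 4 falls and the rise of Gstt2 passed, and that of Gstp2 did not (adjusted p = 0.076). Between 0 and 4 members fell when single livers were left out, with 0 without HFD liver 15. Of 21 tested NRF2 antioxidant genes 1 fell, Gclc, the catalytic subunit for glutathione synthesis, from 172, 186 and 159 FPKM to 110, 97.0 and 108 (-0.71, SE 0.14, adjusted p = 0.022), and none fell without CLE liver 4 or HFD liver 15. None of the 6 tested genes of the aryl hydrocarbon receptor battery passed by limma (1 at an unadjusted p of 0.05), where Ahr and Arnt had log2 fold changes of -0.26 (adjusted p = 0.42) and -0.27 (adjusted p = 0.37).

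**Figure D3:**
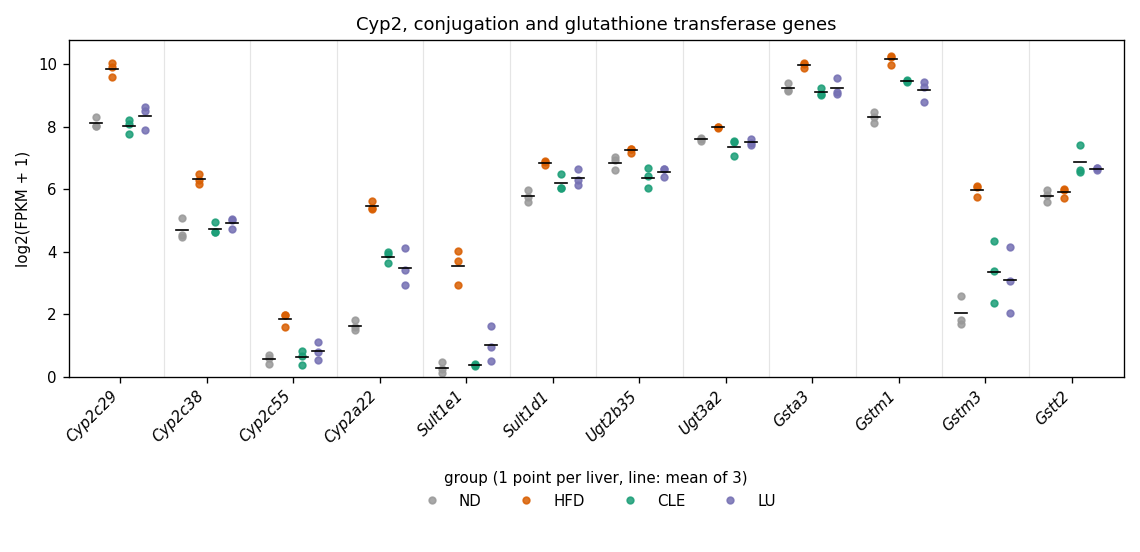
Log2(FPKM + 1) of 12 cytochrome, sulfotransferase, glucuronosyltransferase and glutathione S-transferase genes is plotted per liver, with 1 point a liver and a line at the mean of the 3 livers of each group. The CLE points lie under the HFD points in 11 of the genes and above them in Gstt2.

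Genes of glucose and glyceride metabolism moved in both directions. In the glucose list 1 of 23 tested members rose and 2 fell, where 2.81% of all genes rose and 3.34% fell. Gys2, the liver glycogen synthase, rose from 61.3, 55.8 and 63.1 FPKM to 98.5, 98.1 and 85.5 (0.64, SE 0.11, adjusted p = 0.017). Pygl, the liver glycogen phosphorylase, fell from 123, 141 and 132 to 91.2, 65.2 and 89.4 (-0.70, SE 0.15, adjusted p = 0.033), and Ugp2, which makes UDP-glucose, fell from 271, 272 and 257 to 172, 78.8 and 166 (-1.02, SE 0.24, adjusted p = 0.035). Gys2, Pygl and Ugp2 passed with the GC correction, and none of the list without CLE liver 4 or HFD liver 15. In the fatty acid synthesis list of 22 tested members, Elovl3 (above) rose.

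Of 15 tested triglyceride synthesis genes 1 fell and 2 rose, where 3.34% of all genes fell and 2.81% rose. Mogat1 (ENSMUSG00000012187, chromosome 1, 78510991 to 78538173) read 26.4, 26.6 and 25.6 FPKM in HFD livers and 13.2, 6.00 and 8.11 in CLE livers (log2 fold change -1.49, SE 0.21, adjusted p = 0.0045). Dgat1, which makes the last step to triglyceride, rose from 17.2, 18.1 and 20.0 to 23.3, 33.8 and 23.7 (0.51, SE 0.14, adjusted p = 0.046), and Agpat1 rose by 0.83 (adjusted p = 0.036). Neither rise passed with the GC correction (adjusted p = 0.11 and 0.064). Of 21 lipid droplet and lipase genes 1 fell, Ces1g (ENSMUSG00000057074, chromosome 8, 93302369 to 93337308), from 146, 149 and 180 FPKM to 76.1, 62.5 and 67.0 (-1.20, SE 0.16, adjusted p = 0.0045). Of 15 fatty acid uptake genes, the scavenger receptor Cd36 fell from 144, 161 and 141 to 106, 59.6 and 73.0 (-0.94, SE 0.20, adjusted p = 0.032), and the transport protein Slc27a1 rose from 7.88, 12.6 and 13.3 to 24.0, 36.0 and 16.0 (1.06, SE 0.28, adjusted p = 0.044). With the GC correction Cd36 passed (adjusted p = 0.040) and Slc27a1 did not (adjusted p = 0.090), and neither passed without CLE liver 4 or HFD liver 15.

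Sterol and bile acid genes that passed were mostly lower in CLE livers. Over all genes tested, 2.81% rose and 3.34% fell. Abcg5 and Abcg8, the 2 parts of the pump that sends sterols into bile, read 131, 107 and 120 FPKM and 63.4, 53.6 and 65.3 FPKM in HFD livers. In CLE livers they read 70.4, 70.3 and 80.4 and 39.8, 22.7 and 34.6, log2 fold changes of -0.69 and -0.92 (SE 0.13 and 0.18, adjusted p = 0.018 and 0.022). In the same list of 21 tested genes the apolipoproteins Apoa1 and Apoa5 rose by 0.84 and 0.61 (adjusted p = 0.038 and 0.024), and neither passed with the GC correction (adjusted p = 0.080 and 0.050). Of 22 bile acid genes 2 fell. Akr1d1, a steroid reductase of bile acid synthesis, fell from 95.1, 110 and 104 to 48.7, 36.1 and 50.9 (-1.18, SE 0.18, adjusted p = 0.0087), and Cyp2c70, which makes the muricholic acids of mice, fell from 153, 172 and 137 to 46.9, 45.2 and 81.6 (-1.45, SE 0.23, adjusted p = 0.010). Abcg5, Abcg8, Akr1d1 and Cyp2c70 passed with the GC correction. Without HFD liver 15 no member of either list passed, and without CLE liver 4 2 bile acid genes fell and the other list held 0.

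**Figure D4:**
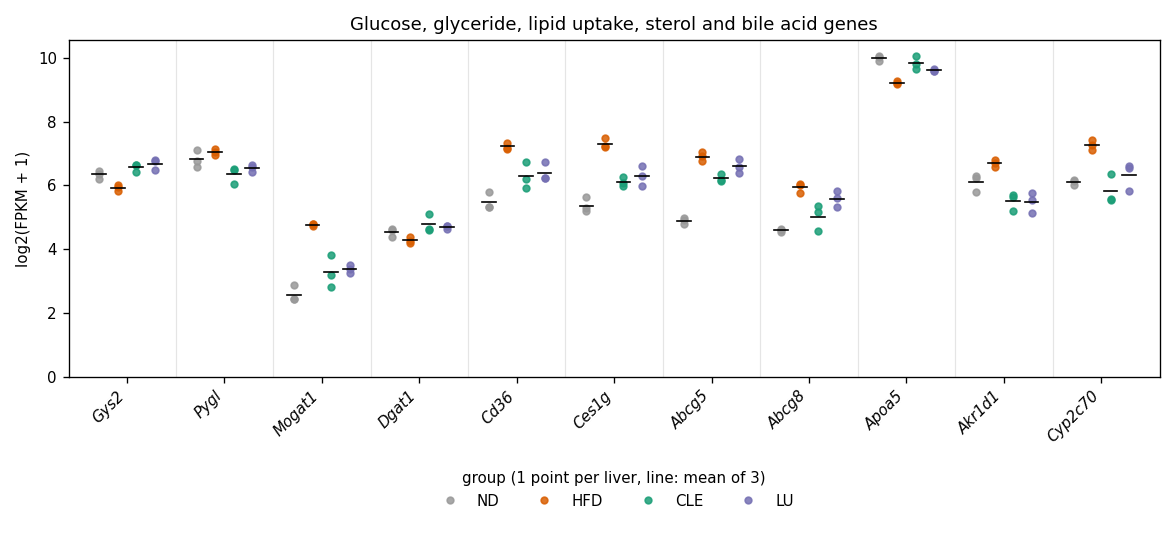
Log2(FPKM + 1) of 11 genes of glucose, glyceride, lipid uptake, sterol and bile acid metabolism is plotted per liver, with 1 point a liver and a line at the mean of the 3 livers of each group. CLE points lie under the HFD points in Pygl, Mogat1, Cd36, Ces1g, Abcg5, Abcg8, Akr1d1 and Cyp2c70 and above them in Gys2, Dgat1 and Apoa5.

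Of 25 tested fatty acid oxidation genes 2 passed, both higher, where 2.81% of all genes rose. Eci1, an isomerase of unsaturated fatty acid oxidation, rose from 182, 170 and 182 FPKM to 233, 264 and 257 (log2 fold change 0.50, SE 0.10, adjusted p = 0.022), and the peroxisomal thiolase Acaa1a rose by 0.66 (adjusted p = 0.049). Of 17 other PPAR-alpha targets 2 rose, and 16 had a log2 fold change above 0, with a median of 0.52. Cyp4a31, a fatty acid omega-hydroxylase, rose from 15.2, 17.9 and 13.7 to 33.5, 39.8 and 26.0 (1.03, SE 0.20, adjusted p = 0.022), and Acot2, a thioesterase whose name covers 3 annotated genes, rose by 1.01 (adjusted p = 0.040). Eci1 and Cyp4a31 passed with the GC correction (adjusted p = 0.047 and 0.023), and Acaa1a and Acot2 did not (adjusted p = 0.15 and 0.064). Without CLE liver 4 or HFD liver 15 no member of either list passed.

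The Kennedy pathway makes phosphatidylcholine and phosphatidylethanolamine from diacylglycerol. The list of this pathway also holds Pemt, which is outside it. Of the 9 tested genes in the list 3 fell and 1 rose, where 3.34% of all genes fell and 2.81% rose. With the GC correction 0 passed. The phosphotransferase Chpt1 (ENSMUSG00000060002, chromosome 10, 88452745 to 88504073) read 225, 253 and 208 FPKM in HFD livers and 173, 170 and 161 in CLE livers (log2 fold change -0.44, SE 0.10, adjusted p = 0.036). Cept1 (ENSMUSG00000040774, chromosome 3, 106502260 to 106547802) read 57.5, 69.2 and 57.8 against 45.8, 42.2 and 45.4 (-0.45, SE 0.10, adjusted p = 0.034). Pcyt1a, the rate-limiting enzyme of the choline branch, fell by 0.60 (adjusted p = 0.037), and Pcyt2, its counterpart in the ethanolamine branch, rose by 0.78 (adjusted p = 0.038). In all 4 genes the groups did not overlap, as in 706 of the 709 genes that passed. The GC-corrected adjusted p-values of Chpt1, Cept1, Pcyt1a and Pcyt2 were 0.13, 0.098, 0.050 and 0.070. Pemt, which makes phosphatidylcholine by methylation, read 300, 255 and 283 FPKM in HFD livers and 225, 289 and 262 in CLE livers, which overlap (-0.12, SE 0.13, adjusted p = 0.57). No member passed without CLE liver 4 or HFD liver 15.

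Of 12 tested sphingolipid synthesis genes 2 fell, where 3.34% of all genes fell. They were Sgms1 and Samd8, which fell by 0.78 and 0.48 (SE 0.21 and 0.12, adjusted p = 0.044 and 0.038). Sgms1 makes sphingomyelin from ceramide, and it read 19.3, 14.1 and 12.3 FPKM in HFD livers and 10.3, 6.85 and 8.07 in CLE livers. Kdsr and Sgms2 had log2 fold changes of -0.61 and -0.59 (adjusted p = 0.055 and 0.058), Cers6 of -0.35 (adjusted p = 0.14) and Cers4 of 0.42 (adjusted p = 0.18). Under the GC correction 0 of the 12 passed, and the transcript of Samd8 with the highest mean gave 0.0022 on the log2 scale, above 0. Leaving out 1 liver in turn gave between 0 and 6 falls. The count was 0 without CLE liver 4 and 6 without CLE liver 2, where 36 and 1201 of all 11510 genes fell.

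Of 31 tested proteasome subunits 6 rose and 0 fell, where 2.81% of all genes rose. Psmd4, which binds ubiquitin chains, rose from 88.2, 82.0 and 86.6 FPKM to 115, 204 and 139 (log2 fold change 0.79, SE 0.17, adjusted p = 0.033). Psma7, Psmb4, Psmb5, Psmc2 and Psmc3 rose by 0.43 to 0.60 (adjusted p of 0.032 to 0.047). With the GC correction 0 of the 31 passed, while the list's median moved from 0.29 to 0.32. When single livers were left out, 0 to 15 rose. The count was 0 without CLE liver 4 and 15 without CLE liver 2, where 18 and 1001 of all 11510 genes rose. Of 56 ribosomal protein genes 2 rose, Rpl3 and Rpl12 (0.41 and 0.67, adjusted p = 0.049 and 0.040), and 54 had a log2 fold change above 0. Neither passed with the GC correction (adjusted p = 0.093 and 0.064). Without CLE liver 2, 20 ribosomal protein genes rose, where 1001 of all 11510 genes did. Without CLE liver 4 or HFD liver 15, 0 of them rose, where 18 and 5 of all genes did.

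The remaining lists held 2 or fewer genes that passed. Of 54 oxidative phosphorylation subunits Ndufs7 rose by 0.71 and Sdha fell by 0.78 (adjusted p = 0.049 and 0.036), fewer than the 6.16% of all genes that passed. Without CLE liver 2, 10 of the 54 rose and 3 fell, where 1001 and 1201 of all 11510 genes did. Without CLE liver 4 none of these subunits passed, where 18 of all genes rose and 36 fell. Of 37 splicing and chromatin genes Srsf6 and Son rose by 0.44 and 0.60 (adjusted p = 0.038 and 0.037), and of 20 ER chaperone genes Edem1 and Dnajc3 fell by 0.63 and 0.66 (adjusted p = 0.031 and 0.048). Saa4, a serum amyloid A apolipoprotein, fell from 320, 265 and 228 FPKM to 123, 97.8 and 161 (-1.10, SE 0.19, adjusted p = 0.016). It was the only 1 of 23 tested members of the acute-phase list that passed. Among 26 interferon-stimulated genes Irf1 rose by 0.53 and Rsad2 fell by 0.92 (adjusted p = 0.044 for both). Single genes passed in the integrated stress response list (Atf5, 0.78, adjusted p = 0.033), the one-carbon list (Dmgdh, -0.53, adjusted p = 0.049) and the urea cycle list (Glud1, -0.73, adjusted p = 0.036). Of these genes Sdha, Son, Edem1 and Saa4 passed with the GC correction, and without CLE liver 4 or HFD liver 15 the count was 0 in each of these lists.

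No member passed in the lists of 21 clock genes, 9 MHC class II genes, 28 matrix genes, 32 annexin, S100 and cytoskeleton genes and 19 cell cycle genes, by limma. At an unadjusted p of 0.05 these lists held 9, 0, 1, 5 and 2 members, where 29.6% of all genes passed. Of the 21 clock genes 14 had a log2 fold change above 0 and 7 below it, with a median of 0.30. Their summed level was 252 to 315 FPKM in HFD livers and 355 to 424 in CLE livers, without overlap. Arntl and Clock, named because they are first in the list, went the other way, with log2 fold changes of -0.20 (adjusted p = 0.63) and -0.41 (adjusted p = 0.10). Cd74 and H2-Aa were at 0.36 and 0.24, Col1a1 and Col1a2 at -0.08 and -0.23, Anxa1 and Anxa2 at -0.26 and -0.24, and Mki67 and Top2a at -0.21 and -0.11. The values of Col1a1, 2.59, 3.20 and 2.72 FPKM in HFD livers and 6.11, 1.45 and 1.71 in CLE livers, show CLE liver 2 apart from the other CLE livers.

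**Figure D5:**
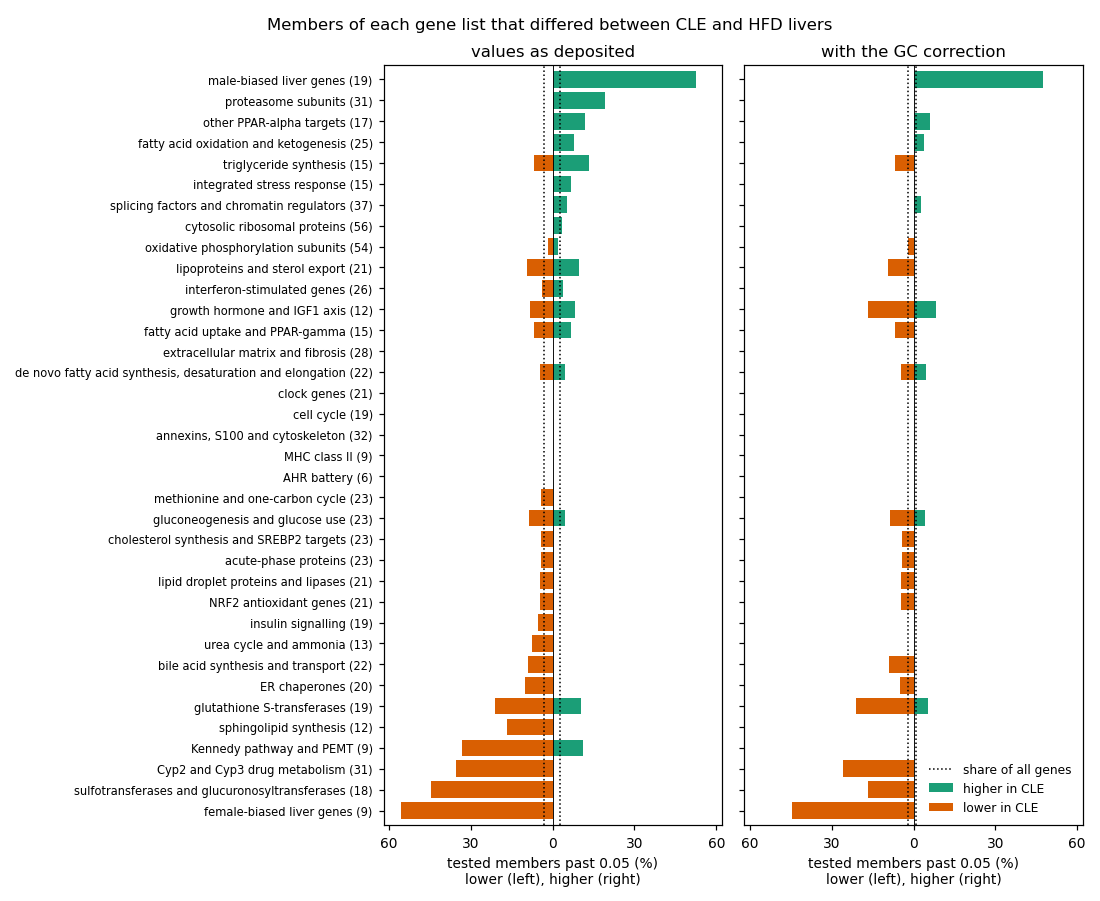
For each gene list, with the number of tested members in parentheses, bars give the percentage of members higher (right) and lower (left) in CLE livers at an adjusted p of 0.05, with values as deposited and with the GC correction, and dotted lines give the share over all genes. Male-biased genes stand at 10 of 19 and female-biased genes at 5 of 9 in the left panel (2 of the 5 passed the filter only through the HFD group) and at 9 and 4 in the right, while the proteasome and Kennedy pathway bars are empty in the right panel.

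Of the other genes with the largest changes, Id1, a target of bone morphogenetic signals, read 12.1, 5.21 and 3.85 FPKM in HFD livers and 16.2, 26.7 and 16.5 in CLE livers (log2 fold change 1.47, SE 0.38, adjusted p = 0.044). After the GC correction Id1 did not pass (adjusted p = 0.074). Its LU mean was 5.87 ± 2.11 and its ND mean 5.35 ± 2.33, and CLE minus LU did not pass either (1.61, SE 0.38, adjusted p = 0.79). Cgref1 rose from 2.44, 2.06 and 3.41 to 12.7, 9.49 and 6.84 (1.53, SE 0.27, adjusted p = 0.015), and Lad1 from 3.25, 3.27 and 4.19 to 10.3, 10.2 and 10.8 (1.33, SE 0.14, adjusted p = 9.2e-04). The CLE values of Lad1 lay close together. Its transcript with the highest mean gave 0.59 (adjusted p = 0.19). Ntrk2 fell from 4.13, 4.87 and 4.76 to 1.12, 0.506 and 1.63 (-1.46, SE 0.18, adjusted p = 0.0022). Slc22a27, an organic anion transporter, fell from 4.65, 6.97 and 5.05 to 1.34, 0.631 and 1.21 (-1.67, SE 0.24, adjusted p = 0.0064), and Atp6v0d2, a subunit of the vacuolar proton pump, fell from 3.12, 4.15 and 6.40 to 2.07, 0.189 and 0.699 (-1.55, SE 0.30, adjusted p = 0.022).

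Markers of the cells that a liver sample can hold were mostly not different. Among all genes tested, 2.81% rose and 3.34% fell. Of 12 hepatocyte markers 2 rose, Apoa1 and Serpina1a (0.83, adjusted p = 0.030), and their summed level was 24806 to 27364 FPKM in HFD livers and 25264 to 30429 in CLE livers. Albumin, a defining marker, was listed at 0 in every HFD and CLE liver, which can be a failed estimate. Of 26 macrophage markers 1 fell, Mpeg1, from 41.9, 40.2 and 39.3 FPKM to 28.5, 11.3 and 23.0 (-1.01, SE 0.27, adjusted p = 0.044), and the list summed to 464 to 624 FPKM in HFD livers and 416 to 620 in CLE livers. Of 12 stellate cell markers Des rose by 0.44 (adjusted p = 0.047), with sums of 244 to 338 and 264 to 350. Neither Mpeg1 nor Des passed with the GC correction (adjusted p = 0.063 and 0.15), and in the 6 fits that left out a liver Des passed in 0 and Mpeg1 in 1. Sums of 14 sinusoidal endothelial markers were 199 to 212 FPKM in HFD livers and 229 to 278 in CLE livers, those of lymphocyte markers 15.1 to 18.9 and 24.0 to 32.3, and those of neutrophil markers 4.49 to 7.87 and 8.77 to 13.4, without overlap in any of the 3. No member of these lists passed the adjusted 0.05 by limma. Of 14, 9 and 2 tested members 4, 3 and 1 had an unadjusted p under 0.05, against 29.6% of all genes. Single genes did not overlap between CLE and HFD livers in 31.3% of those tested. Stab1 and Stab2 were at 0.54 and -0.04 (adjusted p = 0.12 and 0.90), Cd3g and Cd4 at 0.23 and 0.40 (adjusted p = 0.44 and 0.095), and S100a8 and S100a9 at 0.92 and 0.35 (adjusted p = 0.095 and 0.46). The part of these cells in the results above was not tested.

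Cholangiocyte markers summed to 42.7 to 63.0 FPKM in HFD livers and 51.3 to 91.3 in CLE livers, with 0 of 4 tested past 0.05 (Epcam 0.25 and Sox9 0.32, adjusted p = 0.42 and 0.17). Adipocyte markers summed to 1523 to 2051 and 937 to 1556, with 0 of 5 past 0.05 (Cfd -0.15 and Car3 -0.65, adjusted p = 0.88 and 0.21) and the defining Adipoq, Plin1, Lep and Retn under 0.5 FPKM on average. Erythroid markers summed to 94.7 to 129 and 93.2 to 143 (Hba-a1 0.35 and Hba-a2 0.25, adjusted p = 0.41 and 0.55). Of the pancreas markers 8 of 12 were at 0 in all 12 livers and 1 was tested (Cela1, 0.05, adjusted p = 0.91), and of the neutrophil markers Ly6g was at 0 in all.

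CLE livers and LU livers differed in 1 of 11510 genes (0.00869%), and 502 passed an unadjusted p of 0.05. The gene was Gm10275 (ENSMUSG00000069682, chromosome 10, 29698746 to 29699380), at 3.05, 3.23 and 2.58 FPKM in CLE livers and 0.331 ± 0.036 in LU livers (log2 fold change CLE minus LU 1.57, SE 0.12, adjusted p = 1.2e-04). HFD livers held 2.16 ± 0.392 and ND livers 1.76 ± 0.222, so the LU livers stood apart from the other 3 groups in this gene. For Hsd3b5, Cyp2b9, Sult1e1, Igfbp2 and Mogat1 the log2 fold changes of CLE minus LU were -0.21, -0.11, -0.65, 0.26 and -0.11 (SE 0.83, 0.62, 0.28, 0.23 and 0.21, adjusted p of 0.97 to 0.99). A difference between the extract and luteolin in these genes was not shown, and a p of this size does not show that they act alike.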

How the data were processed

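RNA of 12 mouse livers, extracted with TRIZOL, was made into mRNA libraries with the TruSeq RNA kit and sequenced. The authors deposited FPKM per transcript, and the submitters' processing notes name CASAVA 1.8.2, Bowtie2 2.2.3, TopHat2 2.0.12 and Cufflinks 2.2.1. The genome build is not given in the sources used here. The ends of 87.6% of known transcripts equal those of GENCODE M21 on GRCm38, whose gene coordinates and identifiers are printed. Whether scaling factors from the study's normalization are in the values is not stated, and depth per sample is unknown, so no counting interval was computed.

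FPKM were summed by gene name, leaving out 8149 transcripts with no reference gene and 161 with no name. Those with no reference held most of the FPKM of every library, 6084423 of 6730422 in CLE liver 4 and 2597496 of 3161602 in CLE liver 2. The sums kept 563909, 645810 and 611081 FPKM in CLE livers 2, 4 and 11. In HFD livers 12, 15 and 18 they kept 624616, 568382 and 571564. Of the 22037 names, 742 cover more than 1 annotated gene. Genes averaging at least 0.5 FPKM were fitted with limma 3.58.1 in R 4.3.3 on log2(FPKM + 1), as 4 groups in 1 fit with a mean-variance trend and two-sided moderated tests. On simulated data with 11510 genes, of which 200 were given a log2 change of 1.5, the fit called 190 of the 200 and 12 others. The simulated noise was independent between genes and held no GC relation, so this does not bear on the calls in these livers. Most of the 709 changes were also smaller, as 28 genes rose and 56 fell by at least 1. The GC correction subtracted a loess curve (span 0.3) from each library. The names of groups come from the labels, where CLE livers are titled CLL, and 0 columns were left unmapped.

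Genes were named by rule: the 12 largest rises and falls with non-overlapping groups and a group mean of at least 2 FPKM, up to 6 genes past 0.05 per list (2 where none passed), the genes past 0.05 between CLE and LU livers, and 8 genes of phospholipid and sphingolipid synthesis that the study names. Members of the set of 25, and those lists' further members, were named after their values were seen. The members and the lists were chosen with earlier results of these data known. Promoters are those of RefSeq on GRCm38.p6. Some genes that passed are not reported here.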

Additional observations from a re-analysis of the deposited data

Results flagged for a closer look

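Gm10275 was the gene in which the CLE and LU livers differed, that is, in which the effects of the extract and of luteolin on the high-fat diet differed. The log2 fold change of CLE minus LU was 1.57 (SE 0.12, adjusted p = 1.2e-04 by limma), with all 3 CLE values above all 3 LU values, and against HFD livers the CLE livers did not pass (adjusted p = 0.10). Groups of 3 livers were not examined for outlying samples.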

How the results depend on the processing

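Against 709 genes between CLE and HFD livers, 116 passed without a filter on low values, 1143 after quantile normalization, 93 with those groups fitted alone, 263 with the transcript of highest mean, 344 with the GC correction (112 higher, 232 lower), 468 with the GC and length correction and 33 with the clock score, and leaving out 1 liver gave 27 (without HFD 15) to 2202 (without CLE 2). The counts without HFD 12, HFD 18, CLE 4 and CLE 11 were 61, 93, 54 and 415. A pseudocount of 0.1, a filter at 5 FPKM, no variance trend, median-of-ratios scaling, stricter class codes, sums by GENCODE gene, the length correction and, added after seeing the data, transcripts with no reference gave 658 to 991, where median-of-ratios scaling gave 319 higher and 583 lower. Of 90 named genes past 0.05, all kept their direction except Samd8 with the transcript of highest mean, and 51 passed with the GC correction, 18 with the clock score, 36 with the transcript of highest mean and 16 without HFD 15. The cause of these moves was not tested.

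Between CLE and LU livers 1 gene passed, and 3 without a filter, 0 with a mean of at least 5 FPKM by limma (308 at an unadjusted p of 0.05), 2 after quantile normalization, 2 with the transcript of highest mean, and 1 to 3 when 1 liver was left out (2 without LU 3, 3 without LU 8).

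Signs turned with the transcript of highest mean in Samd8 (0.0022), Arnt (0.36), Clock (0.18) and Anxa1 (0.042), with the clock score in Arntl (0.28), Col1a1 (0.12), Top2a (0.015), Hba-a2 (-0.039) and Cela1 (-0.12), with the GC correction in Top2a (0.044) and Cela1 (-0.073), with the length correction in Stab2 (0.050) and Cela1 (-0.070), and with both corrections in Top2a (0.090) and Cela1 (-0.12). With 1 liver left out, log2 fold changes ranged from -0.42 to 0.045 in Arntl, -0.041 to 0.53 in H2-Aa, -0.57 to 0.20 in Col1a1, -0.14 to 0.16 in Stab2, -0.68 to 0.69 in Cfd and -0.16 to 0.32 in Cela1. Of these genes Samd8 had passed 0.05.

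No paired analysis was possible because HFD and CLE livers share no mouse number and CLE and LU livers share 1.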
